A study of Mus musculus with 51 samples.

Results

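The genes described here are Tnf and the genes whose symbols begin with Tnfsf (ligands) or Tnfrsf (receptors). A gene was included when it had 10 or more counts in at least 3 libraries. This rule kept 28 of the 32 family symbols in the tables, out of 22609 genes in all. The 28 members comprised 9 ligands and 19 receptors. The 4 symbols that did not reach it were Tnfrsf8, Tnfsf18, Tnfsf4 and Tnfsf11. The last of these, which encodes the osteoclast factor RANKL, reached 10 counts in 2 libraries.

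The study measured polyadenylated RNA in male C57 mice aged 8 to 12 weeks that were given the chemotherapy drug paclitaxel or its vehicle. The drug was injected intraperitoneally at 2 mg/kg, with 2 injections 1 day apart, a schedule used to model the painful nerve damage that the drug causes in patients. The 51 libraries fell into 17 groups of 3 libraries. Dorsal root ganglia (DRG) of lumbar levels 3 to 5 and punch biopsies of the hind paw each had 1 vehicle group, of day 2, and paclitaxel groups of days 2, 7, 22 and 35. Spinal cord came in a pair of sets, told apart by their source names. Set A had vehicle and paclitaxel groups of days 1 and 7, and set B had paclitaxel groups of days 1, 22 and 35 with no vehicle. In DRG and paw, drug and time after injection therefore cannot be told apart at days 7, 22 and 35, and the day 35 tables also differ from the other DRG and paw tables in how their summary lines are named. No label states whether libraries that share a group are from different mice, so p-values measure the spread between these libraries, which may be technical.

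TNF family ligands are mostly made as membrane proteins that work as trimers, and some are released by cleavage. Receptors with a death domain, such as Tnfrsf1a, can start inflammation through NF-kB or cell death through caspases. Receptors without one, such as Tnfrsf1b, recruit TRAF adaptors directly, and decoy receptors such as Tnfrsf11b hold ligands without signalling. TNF from macrophages, Schwann cells and glia is known to sensitize pain-sensing neurons, and several other members act in lymphoid tissue, bone and skin.

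Promoter sequence is shown for Tnfsf10 and Tnfrsf1b, the members with the smallest unadjusted p in DRG over all paclitaxel days and in the paw at day 22. The letters are the 250 bases before the start of each gene, from RefSeq (GRCm38.p6), a later build than the mm9 genome used for counting. Tnfsf10 lies on the plus strand at chr3:27316827-27317076, and Tnfrsf1b on the minus strand at chr4:145246871-145247120. Capitals mark motif matches.
Tnfsf10: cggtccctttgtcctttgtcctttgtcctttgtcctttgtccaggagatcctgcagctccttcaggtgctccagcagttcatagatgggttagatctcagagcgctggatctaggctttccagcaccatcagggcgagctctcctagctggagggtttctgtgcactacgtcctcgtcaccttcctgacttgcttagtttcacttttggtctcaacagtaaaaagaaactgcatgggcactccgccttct
Tnfrsf1b: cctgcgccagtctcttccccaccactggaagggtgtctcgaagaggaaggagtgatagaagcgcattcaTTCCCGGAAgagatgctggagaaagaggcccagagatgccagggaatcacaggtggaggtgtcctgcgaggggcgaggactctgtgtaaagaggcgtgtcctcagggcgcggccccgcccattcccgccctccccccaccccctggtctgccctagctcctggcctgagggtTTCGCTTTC
The motifs searched on both strands were GAAANNGAA, the core of the interferon response element, TTCNNNGAA, the element bound by STAT factors, and the NF-kB consensus. The Tnfrsf1b window held 1 match to the interferon response element core, which began 9 bases before the start, and 1 match to the STAT element. These did not overlap, and the Tnfsf10 window held no match to any of the motifs. Of the 28 members, 22 had a promoter in the table, with 26 promoters in all. The interferon element core occurred in 6 of these 26 promoters and in 7.13% of all 32851 promoters, the STAT element in 5 of 26 and in 7.02%, and the NF-kB consensus in 2 of 26 (Tnfrsf25 and Tnfrsf9) and in 7.25%. A match describes the letters only.

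Reads assigned to genes numbered 18645710 to 27257659 per DRG library, 13346971 to 21697763 per paw library and 17661067 to 30247230 per cord library. Some libraries stood apart. In paw vehicle replicate 2, reads that overlapped no gene equalled 44.1% of gene reads, against 16.8% to 23.7% in the other paw libraries. Its reads aligned to several places equalled 156.8%, against 103.2% to 116.9%. This library is part of the reference for every paw day. In set A cord, 5 of the 6 day 1 libraries (vehicle replicates 2 and 3 and all 3 of paclitaxel) had summed levels of 8 sensory neuron markers between 1220 and 3500 CPM (reads of a gene relative to all gene reads of its library, scaled by TMM factors), against 65.8 to 176 in the other 16 cord libraries. In DRG, replicate 2 of paclitaxel day 7 had a neutrophil marker sum of 2180 CPM, against 41.0 to 600.0 in the other 14. In the paw, replicate 3 of paclitaxel day 22 and replicate 3 of day 35 had B cell sums of 82.8 and 26.8 CPM, against 1.13 to 2.86 in the other 13, and bone and cartilage sums of 121 and 75.5 CPM, against 2.16 to 5.55. Each tissue held its defining markers: Scn10a, a sodium channel of pain-sensing neurons, was at 648 to 1346 CPM in DRG, and all 15 paw libraries had keratinocyte marker sums of 21200 CPM or more.

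Without the drug, the levels of many members differed between the tissues, as did those of many other genes (shares below). Levels below are from vehicle libraries, 3 each of DRG and paw and 6 of cord. Per kilobase of exon, the highest member in DRG was Tnfrsf21 (death receptor 6, known for its part in axon pruning), at 62.5 ± 4.94 CPM per kb (SD, n = 3). Tnfrsf21 also led in cord, at 36.2 ± 6.45 (SD, n = 6), while Tnfrsf1a (TNF receptor 1) led in the paw, at 62.4 ± 3.23 (SD, n = 3). By mean CPM, 17 members were highest in paw, 8 in DRG and 3 in cord. The same count was not made over all genes. Tnf, Tnfrsf9, Tnfrsf17, Tnfrsf18 and Tnfsf15 had 3 or more libraries with 10 counts in paw alone, and Tnfrsf13b in DRG alone. The rule for members therefore favours genes that are high in 1 tissue. Tnf itself ranked 25 of 28 in DRG and in cord and 16 of 28 in paw, at a mean of 0.0811 CPM per kb in DRG, 0.570 in paw and 0.0687 in cord. Exon lengths came from another annotation (GENCODE M21) than the one used for counting.

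**Figure D1:**
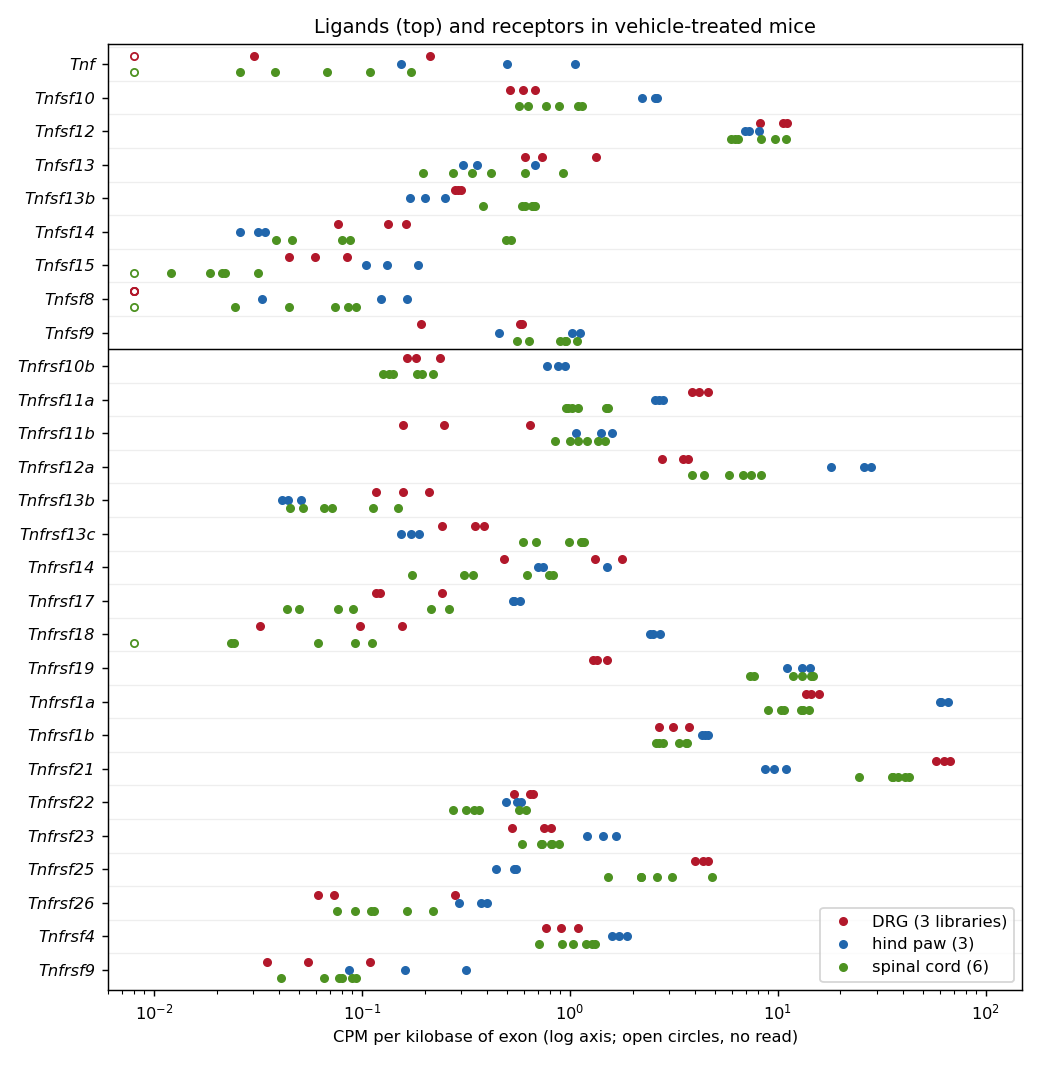
Level of each member in vehicle libraries, in CPM per kilobase of exon on a log axis, 1 point per library and open circles for libraries with no read. Tnfrsf1a, Tnfrsf12a and Tnfrsf18 lie further right in paw than in the other tissues and Tnfrsf21 in DRG, and most ligands lie at or under 1 CPM per kb.

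Most members in the fit between tissues were receptors, and so were most of those at the ends of the range. The ligands Tnf, Tnfsf8, Tnfsf14 and Tnfsf15 were too sparse for that fit, and by means Tnf was 8.3-fold and Tnfsf15 8.01-fold higher in paw than in the lowest tissue. Tnfrsf18 (GITR, known from regulatory T cells) was at 3.69 to 4.14 CPM in paw vehicle libraries, at 0.0495 to 0.237 in DRG and at 0 to 0.171 in cord. It was the one member at least 10-fold higher in 1 tissue than in both others, 26.7-fold over DRG by means. It met the rule for members through the paw alone, with 10 or more counts in 15 paw, 0 DRG and 0 cord libraries. Its DRG vehicle level rests on 1, 5 and 3 reads. Tnfrsf12a (Fn14, the receptor of TWEAK) was at 34.8 to 54.3 CPM in paw, 5.34 to 7.17 in DRG and 7.49 to 16.0 in cord. Tnfrsf19 (TROY, a receptor of neural progenitors, glia and hair follicles) was low in DRG alone, at 6.09 to 7.17 CPM, against 52.3 to 67.6 in paw and 34.9 to 69.7 in cord. Tnfrsf21 was at 236 to 277 CPM in DRG, 100.4 to 176 in cord and 35.6 to 44.96 in paw, with no overlap between the tissues. Tnfrsf25 (death receptor 3, the receptor of Tnfsf15) was at 9.12 to 10.5 CPM in DRG and 1.00 to 1.25 in paw.

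Differences between tissues were called with edgeR's quasi-likelihood test with p-values adjusted by the Benjamini-Hochberg method across the 16391 genes in the fit, and a threshold of 0.05 for the adjusted p. Of those genes 21 were members. Between DRG and paw, 16 of 21 members were called, 5 higher in DRG and 11 lower, where 41.0% of all genes were called higher and 39.2% lower. The log2 fold changes at the ends were 3.10 ± 0.35 (SE) for Tnfrsf25 and 2.71 ± 0.18 for Tnfrsf21, and -4.65 ± 0.52 for Tnfrsf18, -3.18 ± 0.18 for Tnfrsf19 and -2.82 ± 0.20 for Tnfrsf12a. The third highest, Tnfsf13 (APRIL, a B cell and plasma cell ligand), had 0.99 ± 0.44 and missed the threshold (adjusted p = 0.0534, edgeR). Between DRG and cord, 13 of 21 were called, 8 higher in DRG and 5 lower, against 30.7% and 31.3% of all genes. Here Tnfrsf11a (RANK, the RANKL receptor), Tnfrsf14 (HVEM) and Tnfsf13 were the highest, at 1.83 ± 0.13, 1.38 ± 0.39 and 1.07 ± 0.36 on the log2 scale. Tnfrsf19, Tnfrsf11b (osteoprotegerin) and Tnfrsf13c (the BAFF receptor of B cells) were the lowest, at -3.04 ± 0.17, -1.74 ± 0.35 and -1.55 ± 0.29. Between paw and cord, 15 of 21 were called, 11 higher in paw and 4 lower, against 40.4% and 43.7% of all genes. Tnfrsf18, Tnfrsf1a and Tnfrsf10b (the mouse receptor of TRAIL) were the highest there, at 5.51 ± 0.42, 2.38 ± 0.07 and 2.32 ± 0.20, and Tnfrsf13c, Tnfrsf25 and Tnfrsf21 the lowest, at -2.49 ± 0.33, -2.44 ± 0.33 and -1.95 ± 0.16. With the day 7 cord vehicle libraries alone, which hold few sensory neuron transcripts, the Tnfrsf14 difference between DRG and cord was 0.69 ± 0.44 (adjusted p = 0.192, edgeR) and that of Tnfsf13 was 1.74 ± 0.41 (adjusted p = 0.00325). Of the calls above, Tnfrsf22 between DRG and cord (0.27 ± 0.23, adjusted p = 0.336) and Tnfrsf14 between paw and cord (0.38 ± 0.45, adjusted p = 0.447) were also not called with those libraries alone. In bulk tissue, a difference in the number of cells of a type and a difference in RNA per cell cannot be told apart.

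In DRG no member passed the threshold on any paclitaxel day against the day 2 vehicle group, out of 23 members tested among 15333 genes. Over all genes, 0.0% were called at day 2, 0.157% at day 7, 0.0% at day 22 and 0.209% at day 35. At an unadjusted p under 0.05, edgeR gave 2 of 23 members at day 2, 5 at day 7, 5 at day 22 and 1 at day 35, each of them higher, against 7.62%, 22.4%, 8.85% and 13.0% of all genes. The median log2 fold change of the members was 0.12, 0.15, 0.19 and 0.18 at the 4 days, with a median of 0.0 over all genes on each day. For the mean of the 4 days, edgeR called no member and 0.00652% of all genes, and at the unadjusted level it gave 4 of 23 members and 16.6% of genes. The 5 members not tested in DRG for low counts were Tnf, Tnfrsf17, Tnfrsf18, Tnfrsf9 and Tnfsf8. The same 3 vehicle libraries served as the reference for all 4 days, so the values of the days are not independent of each other.

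**Figure D2:**
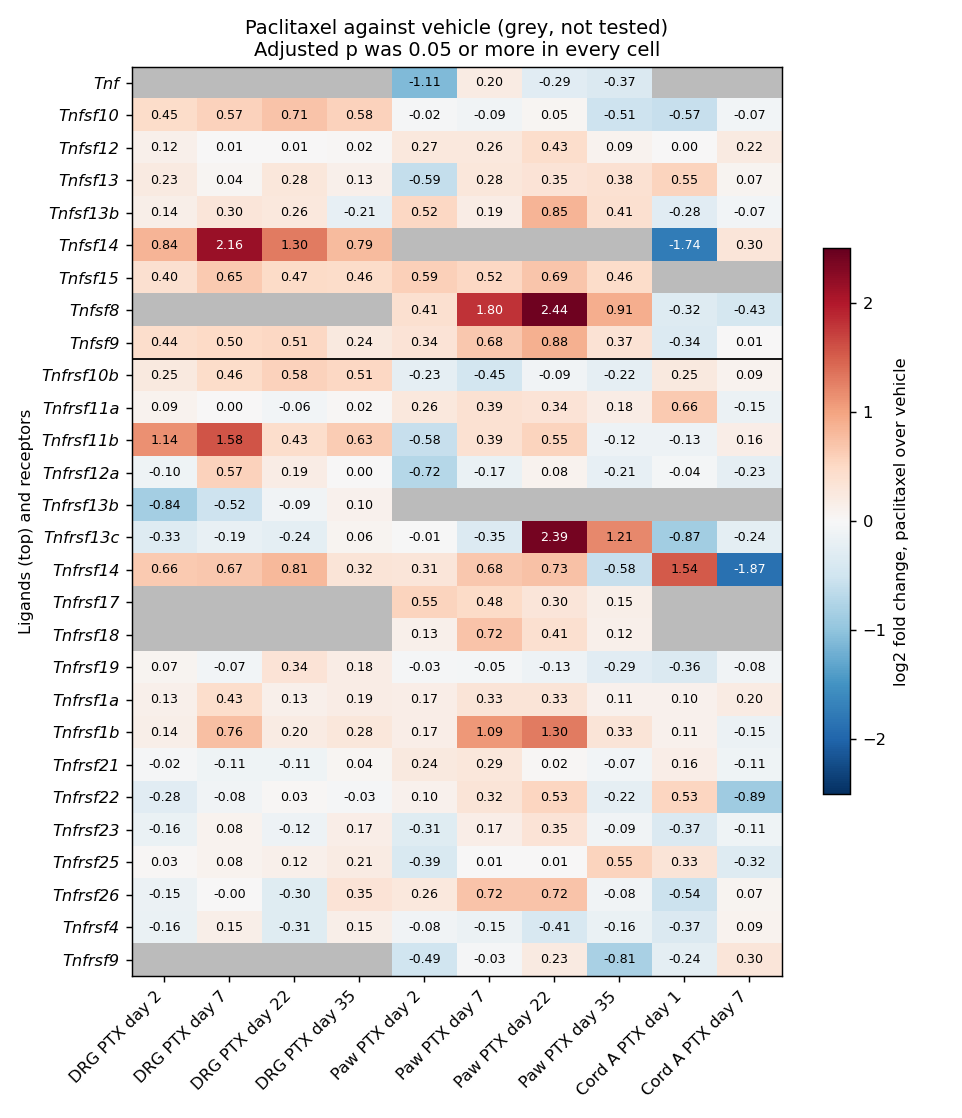
Log2 fold change of each member (rows) on each paclitaxel day against vehicle (columns), with the value in each cell and grey for members not tested in that tissue. Tnfsf10 is above 0 on all 4 DRG days and Tnfrsf1b on all 4 DRG and all 4 paw days, but no cell passed an adjusted p of 0.05 in edgeR.

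Tnfsf10 encodes TRAIL, a ligand that can trigger death of cells through Tnfrsf10b. In DRG it was at 2.72, 3.13 and 3.59 CPM in the vehicle libraries. It was at 3.95, 4.16 and 4.67 CPM at day 2, at 4.67, 4.84 and 4.17 at day 7, at 5.39, 5.84 and 4.17 at day 22 and at 3.39, 4.93 and 5.69 at day 35. Of the 12 paclitaxel libraries, 1 of day 35 lay within the vehicle range and the others lay above it. The log2 fold changes were 0.45 ± 0.20 (SE), 0.57 ± 0.20, 0.71 ± 0.20 and 0.58 ± 0.20, with adjusted p of 0.642, 0.128, 0.433 and 0.268 (edgeR). Over the 4 days the mean difference was 0.58 ± 0.16 (adjusted p = 0.22, edgeR). Tnfrsf10b, its receptor, was at 0.898 to 1.29 CPM in vehicle libraries and at 1.23, 1.82 and 1.66 CPM at day 22. At that day it differed by 0.58 ± 0.24 (adjusted p = 0.532, edgeR), with 1 of the 3 libraries inside the vehicle range. At day 35 it was at 1.25, 1.47 and 1.78 CPM, again with 1 library inside that range (0.51 ± 0.24, adjusted p = 0.394, edgeR).

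Tnfrsf11b, the decoy receptor that holds RANKL and TRAIL, was at 0.446, 1.80 and 0.698 CPM in the DRG vehicle libraries. It was at 2.07, 2.35 and 2.11 CPM at day 2 and at 3.02, 3.64 and 1.98 at day 7, so no library of these days lay within the vehicle range. At days 22 and 35 it lay between 0.928 and 2.09 CPM, and its range overlapped that of vehicle. The log2 difference was 1.14 ± 0.41 at day 2 (adjusted p = 0.642, edgeR) and 1.58 ± 0.41 at day 7 (adjusted p = 0.0842). At day 35 the difference was 0.63 ± 0.42 (adjusted p = 0.532). These values rest on 9 to 73 reads per library.

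Tnfsf14 (LIGHT, a ligand of Tnfrsf14 and of the lymphotoxin beta receptor) was at 0.247, 0.142 and 0.299 CPM in DRG vehicle libraries. At day 7 it was at 0.689, 1.80 and 0.522 CPM, and at day 22 at 0.667, 0.379 and 0.681, with no overlap with vehicle at either day. It was at 0.184, 0.407 and 0.652 CPM at day 2, which overlapped vehicle, and at 0.325, 0.488 and 0.374 at day 35, just above it. The differences were 2.16 ± 0.56 at day 7 (adjusted p = 0.0842, edgeR) and 1.30 ± 0.59 at day 22 (adjusted p = 0.562), and 0.84 ± 0.62 and 0.79 ± 0.62 at days 2 and 35 (adjusted p = 0.732 and 0.593), from 3 to 36 reads per library. Tnfrsf1b (TNF receptor 2, the receptor of immune and endothelial cells) was at 10.2, 12.0 and 14.2 CPM in vehicle libraries and at 17.2, 28.1 and 14.5 at day 7, just clear of the vehicle range. Its difference was 0.76 ± 0.23 (adjusted p = 0.104, edgeR). Tnfrsf1a was at 37.3, 40.8 and 35.5 CPM in vehicle libraries and at 41.1, 67.9 and 39.6 at day 7, which overlapped, with a difference of 0.43 ± 0.17 (adjusted p = 0.167, edgeR). DESeq2 called 3 members at day 7, Tnfrsf11b, Tnfrsf1b and Tnfsf14, where it called 5.86% of all genes, and none at the other days.

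Other receptors came next by p in DRG. Tnfrsf14, which binds Tnfsf14, was at 0.693, 2.56 and 1.90 CPM in vehicle libraries, at 1.98, 2.67 and 3.46 at day 2 and at 3.75, 3.11 and 2.21 at day 22. Both days overlapped vehicle, whose first library was low, and the differences were 0.66 ± 0.38 (adjusted p = 0.674, edgeR) and 0.81 ± 0.38 (adjusted p = 0.564). Tnfrsf13b (TACI, a receptor of BAFF and APRIL on B cells) was at 0.446, 0.332 and 0.598 CPM in vehicle libraries and at 0.230, 0.226 and 0.301 at day 2, below vehicle, from 5 to 12 reads (-0.84 ± 0.40, adjusted p = 0.642, edgeR). Tnfrsf19 was at 6.09, 7.17 and 6.38 CPM in vehicle libraries and at 9.19, 7.73 and 7.88 at day 22, above vehicle (0.34 ± 0.15, adjusted p = 0.547, edgeR). Tnfrsf25 was at 10.5, 9.97 and 9.12 CPM in vehicle libraries and at 11.1, 12.2 and 10.7 at day 35, also above vehicle (0.21 ± 0.12, adjusted p = 0.466, edgeR).

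Replicate 2 of day 7, the library with the high neutrophil sum, held the highest DRG level of Tnfsf14, Tnfrsf1b, Tnfrsf1a and Tnfrsf12a. Tnfrsf12a was at 17.8 CPM there and at 4.52 to 9.01 CPM in the other 14 DRG libraries. Without that library the day 7 differences were 1.40 ± 0.53 for Tnfsf14, 1.35 ± 0.44 for Tnfrsf11b, 0.40 ± 0.17 for Tnfrsf1b and 0.10 ± 0.09 for Tnfrsf1a, with adjusted p from 0.244 to 0.608 (edgeR). The neutrophil list had 8 of 8 markers higher at day 7 at an unadjusted p under 0.05 and none called, with a median difference of 2.77. The macrophage list had 5 of 10 higher at that level. The fat cell list had 3 of the 6 genes tested called higher, with sums over its 7 genes of 79.2 to 104 CPM at day 7 against 6.23 to 20.9 in vehicle. No marker of these lists was at 0 over the DRG libraries. Their part in the differences of the members was not tested. Without replicate 3 of day 7 instead, 4 of 23 members were called by edgeR, Tnfsf14, Tnfrsf11b, Tnfrsf1b and Tnfrsf1a, where 7.59% of all genes were.

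Tnfsf8 (CD30 ligand, of activated lymphocytes and myeloid cells) had no read in any of the 3 DRG vehicle libraries and had reads in all 12 paclitaxel libraries. Its level there was 0.0459, 0.181 and 0.1003 CPM at day 2, 0.318, 0.200 and 0.261 at day 7, 0.257, 0.341 and 0.170 at day 22 and 0.232, 0.266 and 0.0830 at day 35. The groups held 7, 15, 18 and 13 reads in all. Set against a floor of 3 reads over the vehicle group, the pooled levels were 2.24, 5.28, 5.30 and 3.90 times that floor. The floor covers counting error in vehicle only. Counting error of the paclitaxel reads was left out, so these are not lower bounds. Tnfsf8 failed the filter on low counts in DRG. With no filter, its adjusted p was 0.725, 0.0688, 0.294 and 0.140 at days 2, 7, 22 and 35 (edgeR).

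**Figure D3:**
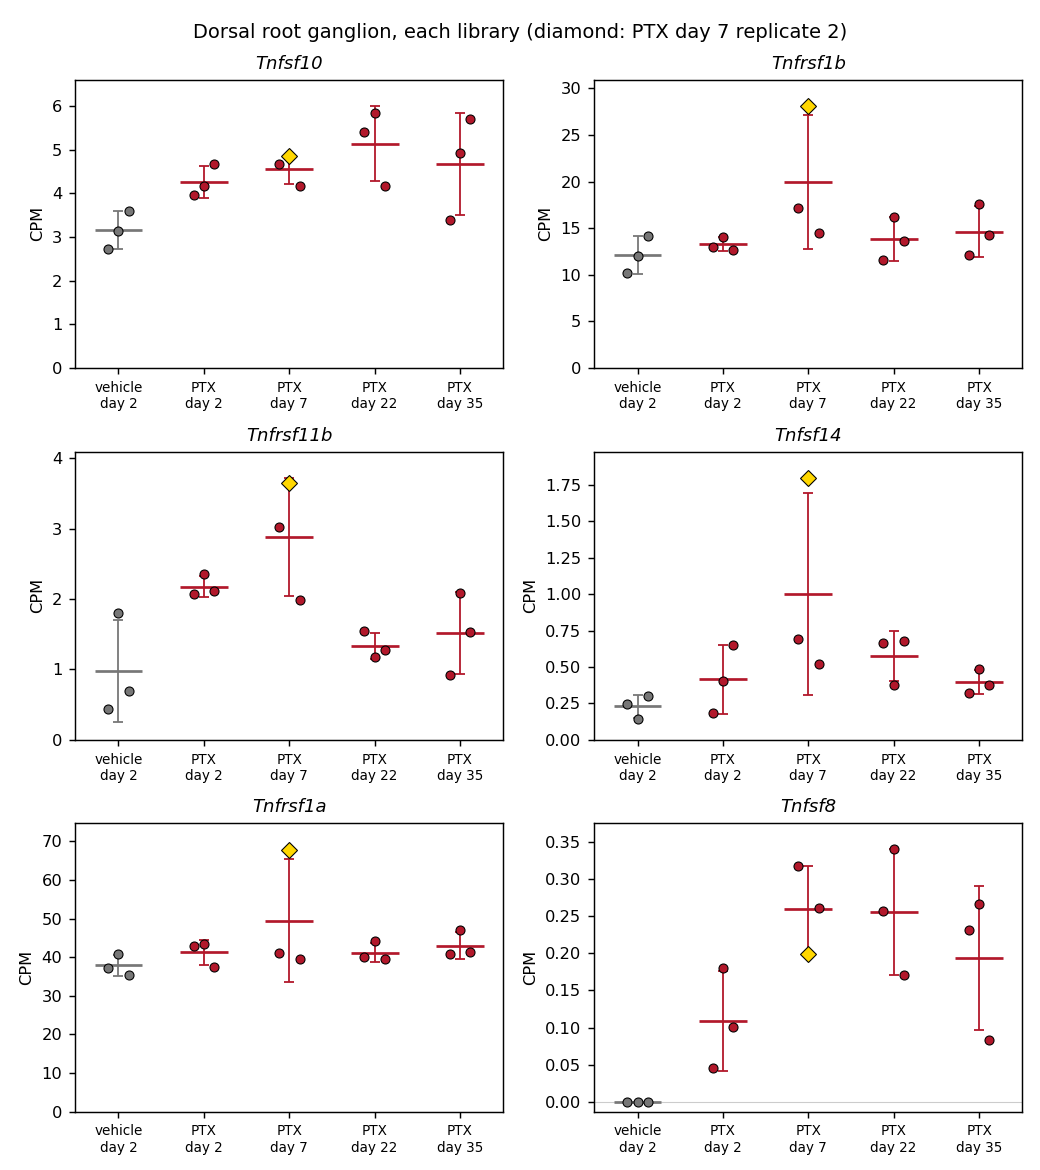
CPM in each DRG library for 6 members, with the mean (line) and SD (bar) of each group of 3, and a gold diamond for replicate 2 of paclitaxel day 7. Tnfsf8 sits at 0 in all 3 vehicle libraries and above 0 in all 12 others, and the diamond is the highest point for Tnfsf14, Tnfrsf1b and Tnfrsf1a.

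In the paw, too, edgeR called no member at any day, out of 26 tested among 15199 genes. Over all genes 0.0% were called at day 2, 0.0% at day 7, 1.12% at day 22 and 0.0% at day 35. At an unadjusted p under 0.05 there were 2 members at day 2, both lower, 4 at day 7 and 8 at day 22, all higher, and 1 at day 35, lower. The corresponding shares of all genes were 7.36%, 13.8%, 18.7% and 5.31%. The median log2 fold change of the members was 0.12, 0.29, 0.35 and 0.01 at the 4 days, against -0.01, 0.0, 0.02 and 0.0 over all genes. For the mean of the 4 days, edgeR called no member and 0.0% of genes, and at the unadjusted level it gave 4 of 26 members and 10.9% of genes.

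Tnfrsf1b was the member nearest to the threshold in the paw. It was at 17.0, 16.4 and 17.6 CPM in vehicle libraries and at 19.6, 17.8 and 20.1 at day 2. It was at 25.6, 49.2 and 31.6 CPM at day 7, at 31.2, 57.5 and 33.9 at day 22 and at 24.8, 12.6 and 26.3 at day 35. All libraries of days 2, 7 and 22 lay above the vehicle range, and 1 library of day 35 lay below it. The difference was 1.09 ± 0.31 at day 7 (adjusted p = 0.146, edgeR) and 1.30 ± 0.31 at day 22 (adjusted p = 0.0549). DESeq2 called it at both days, and called Tnfsf8 at day 22 and no member at days 2 and 35. Over all genes DESeq2 called 4.15% at day 7 and 8.69% at day 22. Without replicate 3 of day 22, the library with bone and B cell transcripts, edgeR gave 1.42 ± 0.34 (adjusted p = 0.0277) in a fit that called 8.19% of all genes, and without replicate 2, the highest, 0.95 ± 0.29 (adjusted p = 0.246). Tnfrsf1a, on the same TNF axis, was at 158, 156 and 171 CPM in vehicle libraries and at 178, 238 and 184 at day 7, with no overlap and a difference of 0.33 ± 0.15 (adjusted p = 0.357, edgeR).

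Tnfsf8 was at 0.126, 0.469 and 0.625 CPM in paw vehicle libraries, at 0.784, 2.62 and 0.901 at day 7 and at 1.31, 3.71 and 1.68 at day 22. Neither day overlapped vehicle. The differences were 1.80 ± 0.70 (adjusted p = 0.268, edgeR) and 2.44 ± 0.68 (adjusted p = 0.0804). Without replicate 3 of day 22 the edgeR value was 2.61 ± 0.74 (adjusted p = 0.0489). Tnfsf13b (BAFF, the survival factor of B cells) was at 1.38, 1.17 and 1.73 CPM in vehicle libraries and at 2.30, 2.95 and 2.35 at day 22, clear of vehicle, with a difference of 0.85 ± 0.27 (adjusted p = 0.106, edgeR). It was at 1.63, 2.05 and 2.53 CPM at day 2, with 1 library inside the vehicle range, and at 2.01, 1.75 and 1.96 at day 35, with none. Tnfrsf11a was at 16.0, 16.7 and 15.3 CPM in vehicle libraries and at 18.9, 21.9 and 21.1 at day 7, again without overlap, with a difference of 0.39 ± 0.15 (adjusted p = 0.263, edgeR). At day 2 it was at 19.7, 19.8 and 18.2 CPM and at day 22 at 19.5, 23.2 and 16.9, each library above the vehicle range (0.26 ± 0.15 and 0.34 ± 0.15, adjusted p = 0.705 and 0.244). Tnfrsf26 (a mouse receptor whose reads may be split with near-copies Tnfrsf22 and Tnfrsf23) was at 0.942, 1.29 and 1.20 CPM in vehicle libraries and at 1.40, 2.68 and 1.502 at day 7, clear of vehicle (0.72 ± 0.34, adjusted p = 0.368, edgeR).

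At day 2 the lower members were Tnfrsf11b and Tnfrsf12a. Tnfrsf11b was at 3.01, 3.99 and 4.47 CPM in vehicle libraries, at 2.54, 2.11 and 3.05 at day 2 and at 4.60, 6.13 and 5.80 at day 22. It thus lay mostly below vehicle at day 2 and above it at day 22, with differences of -0.58 ± 0.22 (adjusted p = 0.607, edgeR) and 0.55 ± 0.21 (adjusted p = 0.182). Tnfrsf12a was at 54.3, 50.2 and 34.8 CPM in vehicle libraries and at 35.2, 34.8 and 14.8 at day 2, with a difference of -0.72 ± 0.28 (adjusted p = 0.622, edgeR). At day 35 the lower member was Tnfsf10, at 8.92, 6.72 and 11.7 CPM against 13.9, 13.6 and 11.7 in vehicle, with a difference of -0.51 ± 0.21 (adjusted p = 0.913, edgeR). Tnfrsf25 was at 1.67, 1.52 and 1.91 CPM at day 35, above the 1.00 to 1.25 of vehicle (0.55 ± 0.34, adjusted p = 0.932, edgeR). Tnfrsf14 was at 0.780, 0.701 and 1.34 CPM at day 35 against 1.07, 2.17 and 1.01 in vehicle, and Tnfrsf19 at 48.2, 36.0 and 64.0 against 67.6, 61.6 and 52.3, and both overlapped (-0.58 ± 0.36 and -0.29 ± 0.23, adjusted p = 0.932 and 0.936, edgeR). Tnfrsf23, another decoy receptor of TRAIL in the mouse, was at 4.53, 4.78 and 4.46 CPM at day 2 against 4.77, 5.69 and 6.59 in vehicle (-0.31 ± 0.21, adjusted p = 0.736, edgeR).

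Tnfrsf13c was at 0.314, 0.352 and 0.385 CPM in paw vehicle libraries and at 0.517, 0.224 and 4.79 at day 22, so its difference of 2.39 ± 1.07 (adjusted p = 0.254, edgeR) came from 1 library. Without that library it was 0.09 ± 0.95. At day 35 it was at 0.223, 0.292 and 1.91 CPM. The high library of each day was the one with the high B cell and bone sums. The same libraries held the family symbol outside the rule, Tnfsf11, at 5.27 and 1.24 CPM, against 0.0557 to 0.342 in the other 13.

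Markers of other cells moved with the paw days. The macrophage sum was 253 to 438 CPM in vehicle libraries, 583 to 887 at day 7 and 504 to 1220 at day 22. Replicate 2 of each day held the highest sum and the highest Tnfrsf1b and Tnfsf8, but at day 7 the sum of replicate 3 was close, at 857 CPM. Neutrophil sums of replicates 1 to 3 were 10.8, 120 and 22.0 CPM at day 7 and 9.72, 115 and 227 at day 22, against 10.1 to 44.0 in vehicle. Of 10 macrophage markers, 8 at day 7 and 9 at day 22 were higher at an unadjusted p under 0.05, and 1 was called at day 22. Of 8 neutrophil markers, 2 at day 7 and 4 at day 22 were higher at that level, and none was called. Of 7 mast cell markers, 5 were called higher at day 22, with sums of 189 to 261 CPM against 93.5 to 135 in vehicle. Of 7 fibroblast markers 2 were called higher at day 22, and of 7 fat cell markers 2, with fat cell sums of 603 to 929 CPM against 292 to 422 in vehicle. None of these markers was at 0 over the paw libraries. Their part in the differences of the members was not tested.

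**Figure D4:**
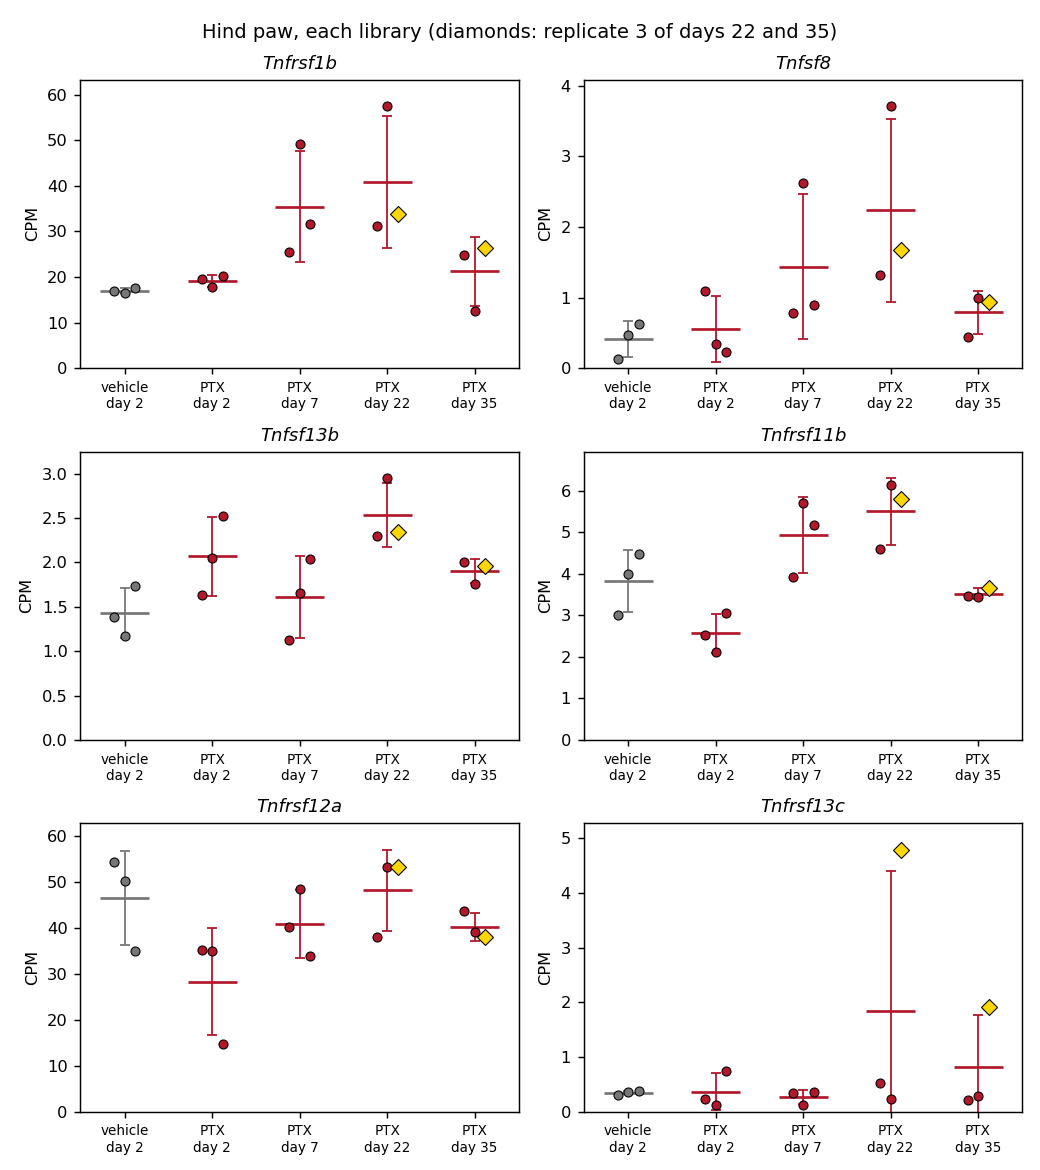
CPM in each hind paw library for 6 members, with the mean (line) and SD (bar) of each group of 3, and gold diamonds for replicate 3 of days 22 and 35. Tnfrsf1b and Tnfsf8 points of days 7 and 22 lie above all vehicle points, and the 2 diamonds are the high points for Tnfrsf13c.

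The difference between the DRG and paw effects was tested in a joint fit of 16304 genes and all 28 members. EdgeR called no member at any day, against 0.0% of all genes at day 2, 0.196% at day 7, 0.0245% at day 22 and 0.0184% at day 35. At an unadjusted p under 0.05 there were 1, 7, 5 and 3 members, against 6.06%, 13.7%, 13.3% and 7.43% of all genes, and DESeq2 called none. The member with the smallest p was Tnfsf10 at day 35, which was higher than vehicle in DRG and lower in paw. The difference between its effects was 1.09 ± 0.28 on the log2 scale (adjusted p = 0.404, edgeR). For Tnfrsf11b at day 2 it was 1.71 ± 0.47 (adjusted p = 0.76, edgeR).

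In set A cord, each drug group had a vehicle group of its own day. EdgeR called no member at day 1 or day 7, out of 23 tested among 15815 genes, where 0.0% of all genes were called at day 1 and 0.0% at day 7. At an unadjusted p under 0.05 there were 5 members at day 1, 2 higher and 3 lower, and 2 at day 7, both lower, against 21.5% and 15.9% of all genes, and DESeq2 called none. Without replicate 2 of day 1 paclitaxel, edgeR called 3 of 23 members at day 1, Tnfrsf11a, Tnfrsf13c and Tnfrsf14, where 11.2% of all genes were called. In a fit of the day 7 groups alone it called 1 of 19, Tnfrsf14, where 11.5% of all genes were called. For the mean of both days edgeR called no member and 0.0% of genes, with 1 of 23 members and 3.67% of genes at the unadjusted level. The change of the drug effect from day 1 to day 7 was called for 1 member, Tnfrsf14, where 8.76% of all genes were called. At the unadjusted level it gave 3 members and 29.6% of genes.

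Tnfrsf14 (HVEM, a receptor of LIGHT and BTLA) was at 0.492, 0.249 and 0.443 CPM in day 1 vehicle libraries and at 1.54, 0.660 and 1.24 in day 1 paclitaxel libraries. At day 7 it was at 1.14, 0.891 and 1.20 CPM with vehicle and at 0.386, 0.129 and 0.356 with paclitaxel. The drug group lay above its vehicle at day 1 and below it at day 7, with no overlap on either day. The differences were 1.54 ± 0.45 (adjusted p = 0.165, edgeR) and -1.87 ± 0.48 (adjusted p = 0.104), and the change between them was -3.41 ± 0.66 (adjusted p = 0.0148). These levels rest on 3 to 47 reads per library. DESeq2 called Tnfrsf14 and also Tnfrsf22, where it called 14.6% of all genes, and without replicate 1 of day 7 paclitaxel the change was -3.66 ± 0.74 (adjusted p = 0.0543, edgeR). In set B, Tnfrsf14 was at 0.694, 0.742 and 0.550 CPM at day 1 of paclitaxel, below 2 of the 3 set A libraries of that day.

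Tnfrsf22 (a decoy receptor of TRAIL in the mouse) was at 2.40, 2.60 and 1.45 CPM in day 7 vehicle libraries and at 1.12, 1.03 and 1.38 with paclitaxel, clear of vehicle, with a difference of -0.89 ± 0.34 (adjusted p = 0.212, edgeR). Tnfrsf11a was at 5.83, 9.16 and 8.90 CPM in day 1 vehicle libraries and at 18.0, 8.11 and 11.5 with paclitaxel, with a difference of 0.66 ± 0.25 (adjusted p = 0.176, edgeR). The groups overlapped, and the highest library was the one with the highest sensory neuron sum, 3500 CPM. In vehicle DRG, where those neurons lie, Tnfrsf11a was at 23.2 to 27.5 CPM, and the part of their transcripts in the cord difference was not tested. Tnfrsf13c was at 2.39, 2.34 and 1.40 CPM in day 1 vehicle libraries and at 0.885, 1.45 and 1.03 with paclitaxel (-0.87 ± 0.25, adjusted p = 0.165, edgeR). Tnfsf14 was at 0.914, 0.966 and 0.148 CPM with vehicle and at 0.230, 0.126 and 0.248 with paclitaxel at that day (-1.74 ± 0.71, adjusted p = 0.191, edgeR). Tnfrsf23 was at 2.32, 3.21 and 2.88 CPM with vehicle and at 1.97, 2.58 and 1.99 with paclitaxel (-0.37 ± 0.17, adjusted p = 0.219, edgeR). These 3 pairs of groups overlapped. Vehicle replicates 1 and 2, the highest for Tnfrsf13c and Tnfsf14, had B cell sums of 14.0 and 15.5 CPM. Replicate 3 had 4.13 and the paclitaxel libraries 3.58 to 6.0. Neutrophil sums were 451 and 624 CPM in those replicates, 90.9 in replicate 3 and 25.2 to 325 with paclitaxel. The part of these cells was not tested. Every paclitaxel library of day 1 held the sensory neuron transcripts, so no day 1 drug effect can be given without them.

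At day 7, Tnfrsf1a was at 34.0, 27.6 and 29.4 CPM with paclitaxel against 23.1, 27.7 and 26.9 with vehicle (0.20 ± 0.10, adjusted p = 0.353, edgeR), and the groups overlapped. Tnfrsf12a was at 10.7, 13.6 and 13.3 CPM with paclitaxel against 13.1, 14.4 and 16.0 with vehicle, with overlap (-0.23 ± 0.20, adjusted p = 0.637, edgeR). Its ligand Tnfsf12 was at 11.5, 10.2 and 11.7 CPM against 9.74, 9.02 and 9.43, without overlap (0.22 ± 0.21, adjusted p = 0.673, edgeR).

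Vehicle libraries of day 7 and day 1 in set A also differed, with no drug in either. EdgeR called 6 of 23 members, Tnfrsf12a, Tnfrsf14 and Tnfrsf19 higher at day 7 and Tnfrsf1a, Tnfsf12 and Tnfsf14 lower, against 8.69% of all genes higher and 11.0% lower. Tnfrsf1a was at 36.5, 34.0 and 33.3 CPM at day 1 and at 23.1, 27.7 and 26.9 at day 7 (-0.46 ± 0.10, adjusted p = 0.00868, edgeR). Tnfrsf19 was at 55.9, 36.4 and 34.9 CPM at day 1 and at 69.7, 68.5 and 62.2 at day 7, and its highest day 1 library was the one without sensory neuron transcripts. All 8 sensory neuron markers were called lower at day 7. The part of those transcripts was not tested. Leaving out any 1 library of these groups left 1 to 3 members called. With only the day 1 library without those transcripts, the differences of Tnfrsf1a, Tnfsf12 and Tnfsf14 were -0.55 ± 0.15, -0.88 ± 0.29 and -3.10 ± 0.86. Those of Tnfrsf12a, Tnfrsf14 and Tnfrsf19 were 0.71 ± 0.29, 1.06 ± 0.65 and 0.21 ± 0.24. These rest on 1 library in that arm, so only effect sizes are given, and they do not show that the calls above hold. Its Schwann cell sum was 19100 CPM, against 1730 to 4970 in day 7 vehicle. Its fibroblast sum was 2050 CPM, against 603 to 926. B cell sums of the 3 day 1 vehicle libraries were 14.0, 15.5 and 4.13 CPM, against 1.83 to 4.35 in day 7 vehicle. Their neutrophil sums were 451, 624 and 90.9 CPM, against 95.7 to 194. The part of all these cells was not tested.

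Between the sets, at day 1 of paclitaxel, edgeR and DESeq2 each called 6 of 23 members, where DESeq2 called 34.9% of all genes, and those of edgeR are given here. Sensory neuron sums were 1220 to 3500 CPM in the set A libraries and 67.0 to 97.0 in those of set B. Schwann cell sums were 15200 to 21900 CPM in set A and 2110, 15400 and 1850 in set B, so replicate 2 of set B stood apart. The part of these transcripts in the differences was not tested. Tnfrsf23 and Tnfrsf9 (4-1BB, a costimulatory receptor of T cells) were higher in set B, where 18.5% of all genes were higher, and Tnfrsf11a, Tnfrsf1a, Tnfrsf22 and Tnfsf13 were lower, where 14.4% were. Tnfrsf11a was at 6.51, 5.14 and 6.05 CPM in set B against 8.11 to 18.0 in set A (-1.11 ± 0.26, adjusted p = 0.00456, edgeR). In a fit of those groups alone, no member was called, and the share of all genes called there is not given here. Within set B, edgeR called no member at day 22 or day 35 against day 1, where 1.09% and 0.0885% of all genes were called. At the unadjusted level there was 1 member each day, Tnfrsf14 lower at day 22 and Tnfsf14 higher at day 35, against 13.2% and 5.22% of genes, and DESeq2 called none. Tnfsf14 had 1 read in the 3 set B libraries of day 1 and was at 0.666, 0.158 and 0.220 CPM at day 35.

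**Figure D5:**
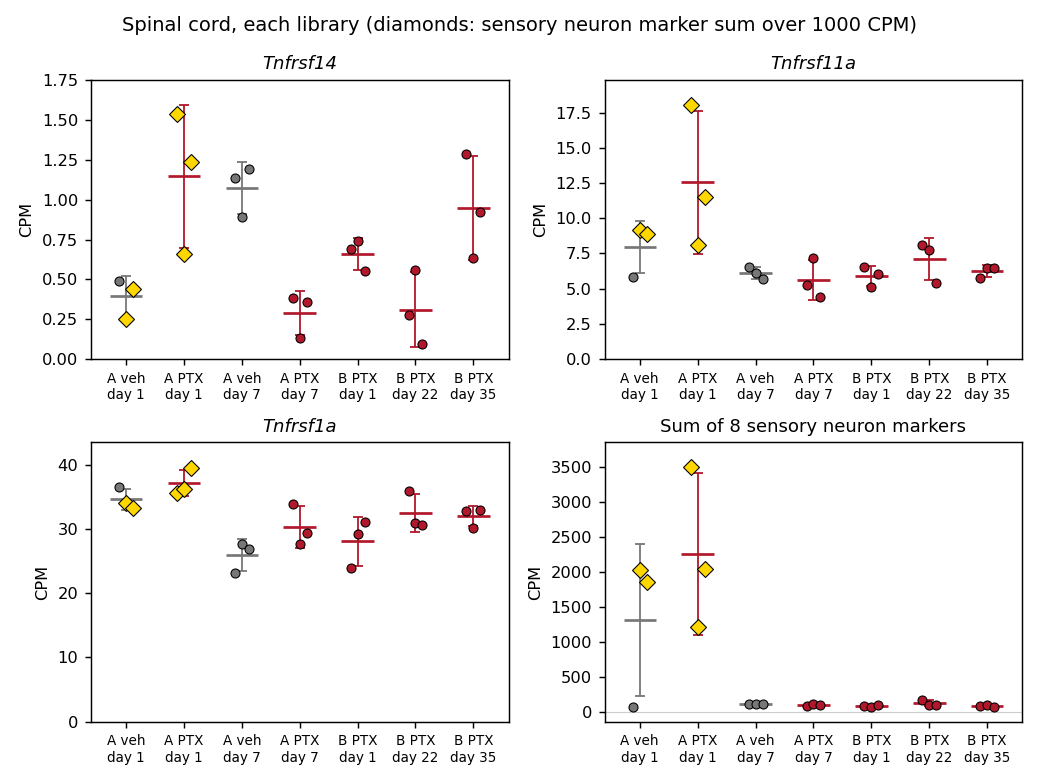
CPM in each spinal cord library for 3 receptors and for the sum of 8 sensory neuron markers, with the mean (line) and SD (bar) of each group of 3. Gold diamonds are the 5 libraries with a marker sum over 1000 CPM, all of set A day 1, and Tnfrsf14 lies above vehicle with paclitaxel at day 1 and below it at day 7.

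The remaining members were called in no drug comparison. Tnf was not tested in DRG or cord. It had a read in 48 of the 51 libraries and 42 reads at most, in 1 paw library of day 7, and in the paw it was at 0.251 to 1.73 CPM with vehicle and at 0.297 to 2.40 over the paclitaxel days. Tnfrsf21, the highest receptor of DRG, was at 200 to 273 CPM there with paclitaxel against 236 to 277 with vehicle, and its largest DRG log2 difference from vehicle was -0.11. Tnfsf12 (TWEAK) was at 13.2 to 17.2 CPM in DRG with paclitaxel against 12.4 to 16.8 with vehicle. Tnfsf12 and Tnfsf13 are neighbours that can share a read-through transcript, so reads may be split between them. Tnfsf13 had log2 differences between -0.59 and 0.55 over the 10 single-day drug comparisons. Over the same comparisons Tnfsf9 (the ligand of 4-1BB) had differences between -0.34 and 0.88 and Tnfrsf4 (OX40, a T cell receptor) between -0.41 and 0.15. Tnfsf15 was tested in DRG and paw, with differences between 0.40 and 0.69. Tnfrsf17 (BCMA, of plasma cells) and Tnfrsf18 were tested in the paw alone, with differences between 0.15 and 0.55 and between 0.12 and 0.72. Tnfrsf9 was tested in paw and cord, with differences between -0.81 and 0.30.

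Genes that work with these receptors were counted in 4 lists. In DRG and in set A cord no gene of any list was called on any single day. In the paw 1 gene was called, Ptgs2 (COX-2, the inflammatory prostaglandin enzyme), which fell at day 22 by 1.63 ± 0.25 on the log2 scale (adjusted p = 0.0261, edgeR). Of the NF-kB subunits and TNF-induced genes, 9 of 23 tested at DRG day 7, 14 of 23 at DRG day 22 and 14 of 27 at paw day 22 had an unadjusted p under 0.05, of which 8, 13 and 13 were higher. The median log2 differences of the list were 0.32, 0.42 and 0.49, against 0.0, 0.0 and 0.02 over all genes. These counts are read against the 22.4%, 8.85% and 18.7% of all genes given above. The genes with the smallest p were Il1b (the cytokine interleukin 1 beta; 2.88 ± 0.66, adjusted p = 0.076, edgeR) and Mmp9 (a matrix protease of neutrophils and macrophages; 2.53 ± 0.76, adjusted p = 0.113) at DRG day 7. Il1b was at 1.32, 3.64 and 1.04 CPM at that day against 0.247, 0.190 and 0.399 in vehicle, and Mmp9 at 28.1, 103 and 17.0 against 7.47, 11.2 and 7.93. Both were highest in replicate 2, the library with the neutrophil sum of 2180 CPM, and its part was not tested. At DRG day 22 they were Icam1 and Vcam1 (adhesion molecules of vessels), at 1.45 ± 0.36 and 1.08 ± 0.27 (adjusted p = 0.433 for both, edgeR). Of the 25 adaptors, kinases and ubiquitin enzymes, 6 at DRG day 7 reached the unadjusted level, led by Casp8 (the caspase of death receptors; 0.85 ± 0.25, adjusted p = 0.101, edgeR). Of the 14 family genes under other symbols, Eda2r (the ectodysplasin A2 receptor) was nearest to a call at DRG day 7, at 1.24 ± 0.28 (adjusted p = 0.0671, edgeR), and Eda had 0.52 ± 0.14 at paw day 22 (adjusted p = 0.0729). At paw day 7 the smallest p was that of Csf1 (the macrophage growth factor), at 1.09 ± 0.22 (adjusted p = 0.0933, edgeR). In cord the change of the drug effect from day 1 to day 7 was called for Eda (-1.30 ± 0.37), Traf2 (-0.48 ± 0.14) and Il1b (3.08 ± 0.92), with adjusted p of 0.0398, 0.0384 and 0.0459 (edgeR). These were 1 of 11, 1 of 25 and 1 of 24 genes tested in their lists, where 8.76% of all genes were called. Of the 5 genes of TNF shedding, none was called in any single-day drug comparison, and Timp3, an inhibitor of the shedding protease, had a difference of 0.20 ± 0.09 at DRG day 7 (adjusted p = 0.205, edgeR).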

How the data were processed

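A stranded mRNA kit and single-end reads of 50 bp were used, per the labels' protocols. The processing tools were bcl2fastq, TopHat2 and HTSeq with the mm9 genome, per the submitters' processing notes, which give no versions. The authors deposited raw read counts per gene symbol, 1 table per library. Reads aligned to several places were not counted to genes, and the strand setting of the counting is not given in the sources used here. Where the series text and the sample titles gave different days, the titles were followed.

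Counts were fitted per tissue with edgeR 4.0.16 (R 4.3.3; filterByExpr with a smallest count of 10 and total of 15, TMM factors, 1 coefficient per group, robust quasi-likelihood test), with Benjamini-Hochberg adjustment over all genes tested. CPM values use TMM factors over all 51 libraries. The fit was tested on simulated data. Alternatives were DESeq2 1.42.0, its size factors, no filter, only the groups compared, a replicate block, and leaving out each library. The same replicate numbers did not pair the libraries: in 0 of 19 pairs of groups were all correlations of same-numbered deviations over 0.1. Members and lists were chosen with earlier results of these data known. Per-library values are given for called members and for the 5 members with the smallest p in each single-day drug comparison; of each list, called genes or else the 2 with the smallest p; between tissues, the 3 highest and lowest fold changes. Tnfrsf13c in the paw, Tnfsf8 in DRG and Tnf were added after their values were seen. The floor of 3 reads covers counting error in the vehicle group only.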

Additional observations from a re-analysis of the deposited data

Results flagged for a closer look

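The effect of paclitaxel on Tnfrsf14 in set A spinal cord differed between day 7 and day 1 by -3.41 ± 0.66 on the log2 scale (adjusted p = 0.0148, edgeR quasi-likelihood interaction term). Tnfrsf14 was higher than vehicle in 3 of 3 libraries at day 1 and lower in 3 of 3 at day 7, with neither day's difference called. The vehicle groups differed too, at 0.492, 0.249 and 0.443 CPM at day 1 and 1.14, 0.891 and 1.20 at day 7. This change of effect was the 1 call among 23 members, where 8.76% of all genes were called. Without replicate 1 of day 7 paclitaxel it was not called. All 3 paclitaxel libraries and 2 of the 3 vehicle libraries of day 1 held sensory neuron transcripts, and their part in this difference was not tested.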

How the results depend on the processing

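Of 341 counts of called members under another setting, 318 stayed within 1.5 times the main count and 23 moved. With DESeq2, 3 members were called at DRG day 7, 1 at paw day 7, 2 at paw day 22 and 2 for the change of the cord drug effect. A fit of only the groups compared gave 1 member at cord day 7 and 0 between the cord sets. A further fit kept, of the day 1 vehicle cord libraries, only the 1 without sensory neuron transcripts, chosen after seeing the data. That arm was assumed to vary like the other groups, so its effect sizes do not show that the calls hold. Between the vehicle days Tnfrsf1a was then at -0.55, Tnfsf14 at -3.10, Tnfrsf12a at 0.71, Tnfrsf14 at 1.06 and Tnfrsf19 at 0.21. The library kept had a Schwann cell sum of 19100 CPM, against 1730 to 4970 in day 7 vehicle. A rule of 50 or more counts in at least 3 libraries kept 17 members. Leaving out 1 library at a time gave 0 to 4 members at DRG day 7 (4 without paclitaxel replicate 3) and 0 to 2 at paw day 22 (2 without paclitaxel replicate 3). It gave 0 to 3 at cord day 1 (3 without paclitaxel replicate 2) and 0 to 3 for the change of the cord effect, with 0 without day 7 paclitaxel replicate 1, 2 without day 7 vehicle replicate 3 and 3 without day 1 paclitaxel replicate 2. Between the cord vehicle days it gave 1 to 3 of the main 6 calls, with each of the 6 libraries left out in turn, and between the cord sets 2 to 7, with 2 without set A replicate 1 and 3 without set B replicate 3. Between DRG and cord it gave 8 to 15 of the main 13, with 8 without DRG vehicle replicate 2. With the replicate number as a block, no drug comparison of DRG, paw or set A cord called a member, and 15, 12 and 5 members were called between DRG and paw, DRG and cord and the cord sets. For the block, the fit of the compared cord sets alone and most fits without 1 library, the share of all genes called is not given here. Those counts therefore show how the calls moved with the setting, and nothing particular to the members. Of 557 values of named members, 540 kept their side of the threshold and direction, 16 passed it, 1 no longer did and 0 reversed; the cause was not tested. Members under about 1 CPM rest on few reads, which limits what 3 libraries can show.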
